A study of Mus musculus with 24 samples.

Results

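The nuclear genes for the respiratory chain from complex II to the ATP synthase were followed in EDL and SOL muscles with and without OSKM (Oct4, Sox2, Klf4 and Myc) in the myofibers. The genes were taken from the count table by symbol, as Sdha, Sdhb, Sdhc, Sdhd, Cyc1, Cycs and every symbol that starts with Uqcr, Cox4i, Cox5, Cox6, Cox7, Cox8 or Atp5. This gave 49 of the 24537 genes in the table, with 4 genes of complex II, 9 of complex III, 1 of cytochrome c, 18 of complex IV and 17 of complex V. The rule itself uses symbols and no measured value, although it was set with earlier results of these data known.

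All mice were 2 months old, carried 1 copy of the doxycycline-driven OSKM cassette (4Fhet) with an rtTA transgene behind a loxP-flanked stop, and were given Dox at 1 mg/ml in the water, some for 2.5 days, some for 5.5 days and some for 8.5 days. Acta1-Cre+/4Fhet mice (Cre+) also carried Cre under the skeletal actin promoter, which removes the stop in myofibers, and Acta1-Cre-/4Fhet mice (Cre-) were the controls. The EDL is a fast-twitch and the SOL a slow-twitch muscle, and RNA came from the whole muscle, so cells other than myofibers contributed to every value. There were 2 libraries for each muscle, genotype and day, 24 in all in 12 groups. The authors left samples without OSKM overexpression out of their own analysis, and the 5.5 day libraries are therefore described apart from the 16 libraries of 2.5 and 8.5 days.

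Complex II, succinate dehydrogenase, passes electrons from succinate to ubiquinone and is also an enzyme of the TCA cycle. Complex III passes them from ubiquinol to cytochrome c, and complex IV, cytochrome c oxidase, from cytochrome c to oxygen. Complexes III and IV pump protons across the inner mitochondrial membrane, and complex V, the ATP synthase, lets them flow back to make ATP. Complexes III, IV and V also hold subunits made from mitochondrial DNA. The 6 such genes looked up by symbol were not found in the count table, so they could not be analysed. Several subunits of complex IV exist in a form made in heart and skeletal muscle (Cox6a2, Cox7a1, Cox8b) and a form made in most tissues (Cox6a1, Cox7a2, Cox8a). Slow fibres are known for their high mitochondrial content.

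Promoter sequence from RefSeq (GRCm38.p6) was at hand for 38 of the 49 genes, and 4 promoters are shown because they stand for the kinds of gene compared below. Sdhd (chr9:50603850-50604099, minus strand) is a complex II gene with NRF1 and ETS/GABP motifs in the bases shown. Its ERR motif lies in the bases after the start, which are not shown. Atp5g3 (chr2:73911327-73911576, minus strand) is a c-ring gene of complex V with an ERR motif and an E-box in the bases shown. Its NRF1 motif lies in the bases after the start. Cox8b (chr7:140900447-140900696, minus strand) and Cox8a (chr19:7217617-7217866, minus strand) are the muscle and the ubiquitous form of 1 subunit of complex IV. Each line gives the 250 bases before the transcription start, 5′ to 3′, and capitals mark a motif that was found.
Sdhd: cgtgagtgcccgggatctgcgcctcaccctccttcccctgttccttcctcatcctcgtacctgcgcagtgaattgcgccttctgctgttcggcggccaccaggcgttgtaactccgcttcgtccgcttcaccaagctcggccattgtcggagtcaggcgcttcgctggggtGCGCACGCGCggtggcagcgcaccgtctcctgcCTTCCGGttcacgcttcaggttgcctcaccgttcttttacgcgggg
Atp5g3: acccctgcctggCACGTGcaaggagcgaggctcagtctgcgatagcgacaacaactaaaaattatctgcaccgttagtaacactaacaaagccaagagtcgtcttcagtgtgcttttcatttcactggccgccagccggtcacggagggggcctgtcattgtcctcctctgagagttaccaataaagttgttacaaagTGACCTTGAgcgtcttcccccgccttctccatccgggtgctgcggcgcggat
Cox8b: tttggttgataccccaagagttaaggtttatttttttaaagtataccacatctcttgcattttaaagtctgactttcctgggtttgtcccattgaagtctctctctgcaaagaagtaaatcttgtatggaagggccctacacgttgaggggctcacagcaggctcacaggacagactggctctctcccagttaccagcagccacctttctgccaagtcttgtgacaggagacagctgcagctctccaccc
Cox8a: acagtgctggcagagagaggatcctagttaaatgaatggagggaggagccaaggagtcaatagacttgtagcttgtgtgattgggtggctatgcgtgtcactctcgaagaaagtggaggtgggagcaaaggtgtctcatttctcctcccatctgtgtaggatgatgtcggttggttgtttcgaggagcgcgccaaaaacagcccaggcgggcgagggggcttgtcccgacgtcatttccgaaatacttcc

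The motifs were searched on both strands as the NRF1 motif, CCGGAAG (ETS/GABP), TNAAGGTCA (ERR), AANATGGCG (YY1) and CACGTG (E-box) in windows of 300 bases, 250 before and 50 after the start. NRF1 and ETS/GABP factors, the ERR receptors and YY1 are known as regulators of nuclear genes for mitochondrial proteins. The NRF1 motif was found in 9 of 38 promoters (23.7%) against 6.6% of the 18149 promoters of the table, and the ETS/GABP motif in 11 (28.9%) against 11.9%. The ERR motif was found in 2 (5.26% against 1.04%), YY1 in 3 (7.89% against 3.3%) and the E-box in 5 (13.2% against 8.14%). The median GC content was 56.5% in these promoters and 56.3% in all. Sdhd and Atp5g3 are the 2 promoters with the ERR motif. Cox8b had none of the 5 motifs in its window, and Cox8a had 2 matches to the ETS/GABP motif, neither of them wholly within the 250 bases shown. The start used lay within 50 bases of the gene start in the count table for 35 of the 38 promoters. It lay 985 bases away for Atp5f1, which had an E-box, 95 for Cycs and 51 for Atp5j2, which had a YY1 motif. A match is a run of letters and not a measured binding site.

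Sequencing depth was alike, with between 36088781 and 54679082 counts per library. Levels are given as FPKM, counts divided by exon length and by a library size scaled with TMM, a method that takes most genes as unchanged. The muscle labels were borne out by the fibre genes, since 10 genes of fast fibres summed to between 101100 and 121700 FPKM in Cre- EDL and to between 27290 and 47990 in Cre- SOL muscles of 2.5 and 8.5 days. For 8 genes of slow fibres the sums were between 175.1 and 1555 FPKM in EDL and between 30340 and 40830 in SOL muscles. All 4 OSKM genes rose in Cre+ EDL muscles after both 2.5 and 8.5 days, and Pou5f1 (Oct4) had 15.3 and 58.46 FPKM after 2.5 days, 66.36 and 53.64 after 8.5 days, but 1.073 and 29.35 after 5.5 days. In Cre+ SOL libraries Pou5f1 had between 4.542 and 11.38 FPKM after 2.5 and 8.5 days, but 0.08123 and 0.4003 after 5.5 days.

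In Cre- EDL muscles these genes were among the abundant transcripts of the tissue. Over the 6 Cre- EDL libraries, 37 genes had a mean above 200 FPKM and 29 of them above 500 FPKM. Together all 49 genes took between 2.4% and 2.63% of the counts in Cre- EDL libraries and between 2.81% and 3.84% in Cre- SOL libraries.

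Atp5b, the catalytic beta subunit of complex V, was highest in both muscles, with 2491 ± 254.9 FPKM in EDL libraries and 2949 ± 279.5 FPKM in those of SOL (SD, n = 6). Cox6a2, the muscle form of subunit 6a of complex IV, and Atp5a1, the alpha subunit of complex V, came next with means of 1637 and 1350 FPKM in EDL muscles. In complex II the highest was Sdhb, the iron-sulfur subunit, with 557.8 ± 49.79 FPKM in EDL, and Sdha, the flavoprotein, had 501.5 ± 59.16 FPKM. Both genes were measured in the same libraries, and their difference was not tested. In complex III the hinge protein gene Uqcrh led with 901.1 ± 85.06 FPKM in EDL muscles. Cycs, which encodes the carrier cytochrome c itself, had 56.89 ± 7.142 FPKM.

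At the low end, Cox8c had no count in any library and Cox7b2 at most 1 count, which is below the limit of 3 counts that a count of 0 allows. Both are forms known from testis. These 2 genes did not pass the filter on low counts, which left 47 genes in every test. Cox4i2, a form known from lung and vessel walls, and Cox6b2, another testis form, passed with means of 3.563 and 1.224 FPKM in Cre- EDL muscles.

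For some genes the level is uncertain because only uniquely aligned reads were counted. Of the 49 genes, 26 shared none of their 50-base windows with another gene, and 5 shared over 50%: Atp5g2 (87.4%), Atp5l (68.5%), Atp5g1 (66%), Cox7c (53%) and Atp5h (50.5%). Another 9 shared between 10% and 50%. Among them was Cycs, with 28.2% shared with 44 other genes, so its low level is uncertain too. Atp5l encodes subunit g of complex V and had a mean of 4.371 FPKM, far below the other subunits, and it shared windows with 13 other genes, 12 of them pseudogenes. The span of 6 genes overlaps another gene of the table, on the opposite strand for Cox6a2, Uqcrc2, Atp5j, Atp5d and Atp5f1.

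The first question was what myofiber OSKM did to these genes in the fast muscle. After 2.5 days of Dox, 39 of the 47 genes were lower in Cre+ than in Cre- EDL muscles and 0 were higher, while of all 15372 genes tested 10.2% were lower and 13.8% higher. A gene was called at a Benjamini-Hochberg adjusted p under 0.05 in edgeR's quasi-likelihood test, adjusted over all genes, with an absolute log2 fold change over 0.5. The median log2 change of the 47 genes was -0.74, or 40% lower, against -0.05 for all genes, and every one of the 47 had a change below 0, as did 53.4% of all genes. After 8.5 days 38 of the 47 genes were lower and 0 were higher, where 6.5% of all genes were lower and 7.63% higher, 43 of the 47 had a change below 0 (51.6% of all genes), and the median was again -0.74 with -0.02 for all genes. The called changes lay between -0.51 and -1.31 after 2.5 days and between -0.51 and -1.21 after 8.5 days.

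**Figure D1:**
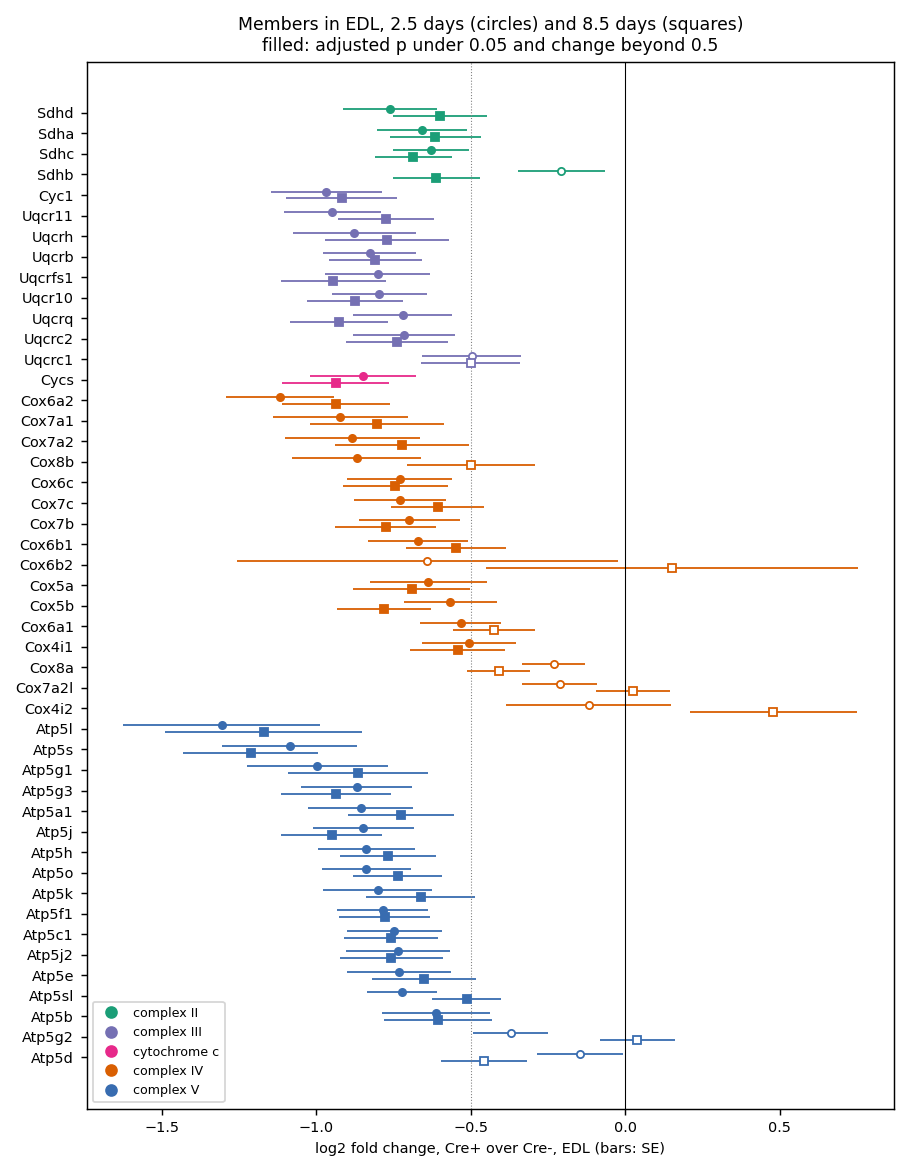
Log2 fold change of Cre+ over Cre- in EDL muscles for each of the 47 genes tested, after 2.5 days (circles) and 8.5 days (squares), coloured by complex. Bars are standard errors, filled symbols passed an adjusted p under 0.05 with a change beyond 0.5, and the dotted line marks -0.5. Most genes of each complex lie left of the dotted line on both days, with Cox4i2, Cox7a2l, Cox6b2 and Atp5g2 at or above 0 after 8.5 days.

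The 37 genes lower on both days came from every complex. The share of all genes lower on both days was not counted, but it cannot exceed the 6.5% lower after 8.5 days. Cox6a1 and Cox8b passed after 2.5 days only and Sdhb after 8.5 days only, and a direct test of the change after 2.5 days against that after 8.5 days called 0 of the 47 genes. At an unadjusted p under 0.05 edgeR had 1 gene, Atp5g2, with the more negative change after 2.5 days (3.8% of all genes), and DESeq2 on the same libraries called 0 with 2 genes at an unadjusted p under 0.05. Of all genes 0% were called in either direction. Over the 47 genes the log2 changes of the 2 days had a Pearson correlation of 0.75 (Spearman 0.73), given as a description, since the genes share libraries on each day.

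The genes called were spread over all complexes. After 2.5 days 3 of 4 genes of complex II, 8 of 9 of complex III, cytochrome c, 12 of 16 of complex IV and 15 of 17 of complex V were lower, with median log2 changes of -0.64, -0.80, -0.85, -0.66 and -0.80. After 8.5 days the counts were 4 of 4, 8 of 9, 1 of 1, 10 of 16 and 15 of 17, with medians of -0.61, -0.81, -0.94, -0.58 and -0.76. The medians of complexes II and IV were the least negative on both days, and no test between complexes was made.

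In complex II, Sdha had 326.4 and 325.6 FPKM in the Cre+ libraries after 2.5 days against 515.6 and 508.5 in Cre-, and 256.7 and 305.4 against 397.3 and 477.3 after 8.5 days. Its log2 change was -0.66 (adjusted p = 0.00541 in edgeR, standard error 0.15) and -0.61 (adjusted p = 0.0137), and on neither day did the groups overlap. Sdhb moved less at first. It had 427 and 477.5 FPKM in Cre+ against 513.7 and 525.3 in Cre- libraries after 2.5 days (log2 change -0.21, adjusted p = 0.3), and 318.7 and 388.5 against 596.4 and 500.3 after 8.5 days, when it fell by 0.61 (adjusted p = 0.0114). The change of Sdhb after 2.5 days minus that after 8.5 days was 0.41 with an adjusted p of 0.558. The membrane anchors Sdhc and Sdhd fell on both days, Sdhc by 0.63 and 0.69 and Sdhd by 0.76 and 0.60.

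In complex III, Uqcrh had 523.8 and 459.1 FPKM in Cre+ against 848.7 and 949.6 in Cre- libraries after 2.5 days, and 456 and 608.9 against 1024 and 820.6 after 8.5 days. It fell by 0.88 and 0.77 on the log2 scale (adjusted p = 0.00613 and 0.0203, edgeR). Uqcrb, which binds ubiquinone near the core of the complex, had 421.3 and 414.9 against 717.4 and 760.4 FPKM, and 389.1 and 522.2 against 856.4 and 764.2 FPKM, and fell by 0.83 and 0.81. All 4 Cre+ libraries of each gene lay below all 4 Cre- libraries. Cyc1, the cytochrome c1 that hands electrons to cytochrome c, fell by 0.97 and 0.92, and Uqcrfs1, the Rieske iron-sulfur protein, by 0.80 and 0.95. The core protein gene Uqcrc1 was the one that was not called, with -0.50 on both days, an adjusted p of 0.0352 after 2.5 days with a change just short of the limit, and 0.0526 after 8.5 days.

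Cycs had 30.93 and 32.24 FPKM in Cre+ against 52.41 and 60.83 in Cre- EDL libraries after 2.5 days, and 26.92 and 37.91 against 69.1 and 56.96 after 8.5 days. It fell by 0.85 and 0.94 on the log2 scale (adjusted p = 0.00294 and 0.00327, edgeR), and its groups did not overlap. Hccs, which attaches heme to cytochrome c, fell alongside by 0.76 and 0.69. The testis gene Cyct, the other gene of that list, did not pass the filter.

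In complex IV the largest fall was that of Cox6a2. It had 721.7 and 649.8 FPKM in Cre+ against 1487 and 1478 in Cre- libraries after 2.5 days, and 652.7 and 930.2 against 1487 and 1592 after 8.5 days, so that the Cre+ level was 53.9% and 47.8% lower (log2 changes -1.12 and -0.94, standard errors 0.18 and 0.18, adjusted p = 0.000625 and 0.00362 in edgeR). Cox4i1, the most abundant of the subunits without a muscle form, had 904 and 892.9 against 1190 and 1352 FPKM after 2.5 days, and 721 and 898.8 against 1262 and 1135 FPKM after 8.5 days. It fell by 0.51 and 0.54, about the least of the called genes. Cox5a, Cox5b, Cox6b1, Cox6c, Cox7b and Cox7c, which surround the catalytic core, fell on both days by between 0.55 and 0.78.

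Among the muscle forms, Cox7a1 had 520 and 491.2 FPKM in Cre+ against 931.1 and 979 in Cre- libraries after 2.5 days, and 400.7 and 580.4 against 1046 and 691.5 after 8.5 days, and it fell by 0.92 and 0.80 (adjusted p = 0.00737 and 0.0249, edgeR). Cox8b had 597.8 and 486.1 against 1010 and 963.4 FPKM after 2.5 days and fell by 0.87, and it had 543.5 and 711.9 against 1015 and 785.1 after 8.5 days, a change of -0.50 that did not pass (adjusted p = 0.128). In each of these comparisons both Cre+ libraries lay below both Cre- libraries.

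The ubiquitous forms changed unequally. Cox7a2 had 148.9 and 130.2 FPKM in Cre+ against 238.4 and 274.7 in Cre- libraries after 2.5 days, and 128.6 and 181.3 against 286.2 and 232.9 after 8.5 days, and it fell by 0.88 and 0.72, much like Cox7a1. Cox6a1 had 35.86 and 36.36 against 48.86 and 55.2 FPKM, then 38.1 and 40.84 against 48.95 and 58.62 FPKM, and fell by 0.53 after 2.5 days with -0.43 after 8.5 days (adjusted p = 0.0456, change under the limit). Cox8a had 61.36 and 67.09 against 72.74 and 77.49 FPKM, then 59.19 and 61.97 against 79.81 and 83.61 FPKM, with log2 changes of -0.23 (adjusted p = 0.111) and -0.41 (adjusted p = 0.0169), neither beyond the limit. All 3 muscle forms were thus called after 2.5 days and 2 after 8.5 days, and 2 and 1 of the ubiquitous forms.

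The forms of other tissues and Cox7a2l made up the rest of complex IV. Cox4i2 had log2 changes of -0.12 and 0.48 (adjusted p = 0.775 and 0.265), with 4.155 and 3.612 FPKM in Cre+ against 3.547 and 4.858 in Cre- libraries after 2.5 days and 5.429 and 3.104 FPKM in Cre+ against 2.945 and 3.271 in Cre- libraries after 8.5 days, so the groups overlapped. Cox6b2 had 0.7574 and 1.198 against 2.25 and 0.7822 FPKM, then 1.818 and 1.458 against 2.006 and 1.008 FPKM, which also overlapped. It had at most 64 counts in an EDL library and its standard error was 0.62 and 0.60. Cox7a2l, which tethers complex III to complex IV in supercomplexes and is not a subunit of complex IV, had -0.21 and 0.03 (adjusted p = 0.214 and 0.922).

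Whether the balance of muscle and ubiquitous forms moved was tested on the log2 ratio of each pair, with an exact two-sided permutation test of the 4 Cre+ against the 4 Cre- libraries of 2.5 and 8.5 days. Cox6a2 over Cox6a1 was 4.27 ± 0.19 in Cre+ and 4.84 ± 0.10 in Cre- EDL muscles (SD, n = 4), a difference of -0.57. The Cre+ libraries lay between 4.10 and 4.51 and the Cre- libraries between 4.74 and 4.93, with no overlap, and the exact permutation p was 0.0286, the smallest this test can give. Adjusted over the 9 ratio tests it was 0.0938. The difference was -0.59 after 2.5 days and -0.54 after 8.5 days taken alone. Cox6a2 still held between 94.5% and 95.8% of the summed FPKM of this pair in Cre+ EDL libraries, against between 96.4% and 96.8% in Cre-.

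No pair passed after adjustment over the 9 tests, and the other pairs gave these values. Cox7a1 over Cox7a2 differed by -0.05 in EDL muscles (exact permutation p = 0.686, adjusted 0.686), with ranges of 1.64 to 1.92 in Cre+ and 1.57 to 1.97 in Cre- libraries. Cox8b over Cox8a differed by -0.37 (exact permutation p = 0.0857, adjusted 0.154), but by -0.65 after 2.5 days and -0.09 after 8.5 days. In SOL muscles Cox6a2 over Cox6a1 differed by -0.24 (exact permutation p = 0.0857, adjusted 0.154), Cox7a1 over Cox7a2 by 0.15 (p = 0.143, adjusted 0.214) and Cox8b over Cox8a by -0.07 (p = 0.686, adjusted 0.686).

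**Figure D2:**
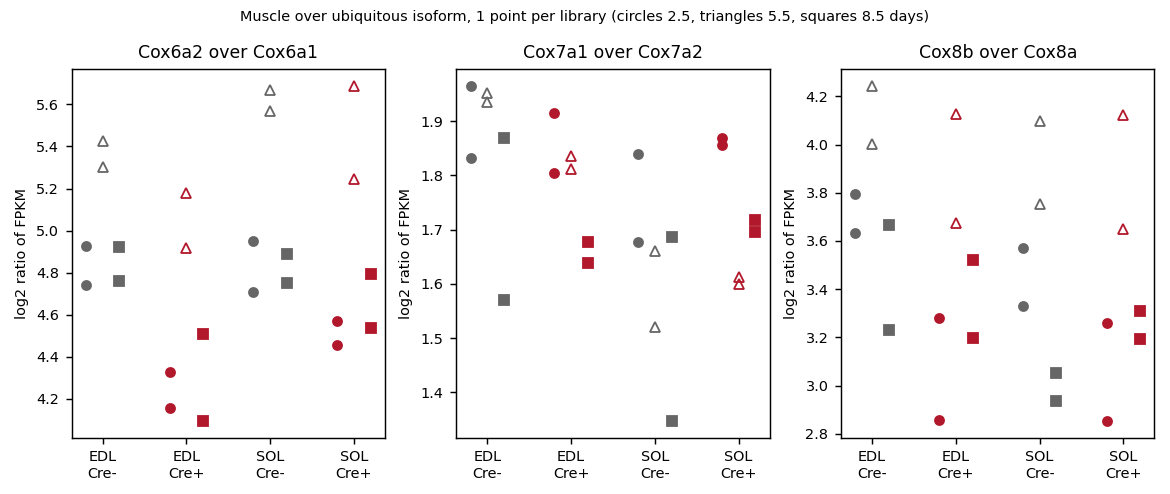
Log2 ratio of the FPKM of the muscle over the ubiquitous form for 3 pairs of complex IV genes, 1 point per library, with Cre- libraries in grey and Cre+ in red. Circles are 2.5 days, open triangles 5.5 days and squares 8.5 days. In EDL the Cre+ circles and squares of Cox6a2 over Cox6a1 lie between 4.10 and 4.51, below all Cre- points, and the 5.5 day libraries of each muscle and genotype lie above its other days in that panel and in the panel of Cox8b over Cox8a.

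Of these ratios, 2 also lay higher after 5.5 days. In the 8 libraries of 5.5 days Cox6a2 over Cox6a1 lay between 4.92 and 5.69, and in the 16 others between 4.10 and 4.95. Cox8b over Cox8a lay between 3.65 and 4.24 in the former and between 2.85 and 3.79 in the latter. For both ratios, the 5.5 day libraries of each muscle and genotype lay above its other libraries. The difference between days was not tested.

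In complex V, Atp5b had 1712 and 1651 FPKM in Cre+ against 2434 and 2684 in Cre- EDL libraries after 2.5 days, and 1325 and 1631 against 2007 and 2560 after 8.5 days. Its log2 changes were -0.61 and -0.60, each with a standard error of 0.18 (adjusted p = 0.0206 and 0.0338 in edgeR). Atp5a1 had 727.8 and 739.3 against 1212 and 1435 FPKM, then 669.6 and 853.1 against 1188 and 1373 FPKM, and fell by 0.86 and 0.73. The groups of these subunits, which form the catalytic head, did not overlap on either day. Of the 5 genes of the F1 part 4 were lower on both days, among them Atp5c1 and Atp5e of its central stalk, and Atp5d, also of that stalk, was not called (-0.15 and -0.46, adjusted p = 0.466 and 0.0414, the latter change under the limit).

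The c-ring that turns as protons pass is made from 3 genes that encode the same mature protein. Atp5g1 had 233.7 and 225.9 FPKM in Cre+ against 430.4 and 483 in Cre- libraries after 2.5 days and fell by 1.00, and by 0.87 after 8.5 days. Atp5g3 had 545.3 and 593.9 against 923.7 and 1150 FPKM after 2.5 days and fell by 0.87, and by 0.94 after 8.5 days. Atp5g2 had 86.87 and 78.46 against 111.5 and 101.5 FPKM, then 102.9 and 108.8 against 112.9 and 96.28 FPKM, with changes of -0.37 (adjusted p = 0.0371, under the limit) and 0.04 (adjusted p = 0.875). Atp5g2 had the lowest level of the c-ring genes, and it is also the gene with 87.4% of its windows shared.

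The genes of the peripheral stalk and the membrane part fell together. Atp5f1, Atp5h, Atp5j and Atp5o of the stalk fell by between 0.78 and 0.85 after 2.5 days and by between 0.74 and 0.95 after 8.5 days, and Atp5j2 and Atp5k of the membrane part by 0.74 and 0.80, then 0.76 and 0.66. Atp5l had 1.939 and 1.215 FPKM in Cre+ against 4.143 and 3.653 in Cre- libraries, then 1.455 and 1.93 against 4.898 and 2.842 FPKM, and fell by 1.31 and 1.17 (standard error 0.32, adjusted p = 0.00877 and 0.0253 in edgeR), from at most 89 counts in an EDL library of those days. Atp5s, which carries the name of complex V but is no subunit of it, had 5.43 and 3.582 against 9.872 and 9.225 FPKM, then 3.633 and 4.762 against 10.29 and 9.459 FPKM, and fell by 1.09 and 1.21. Atp5sl, likewise no subunit, fell by 0.72 and 0.51.

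The genes for proteins that build or regulate the complexes were also counted. Of 39 assembly and regulatory genes, 8 were lower and 1 higher in EDL muscles after 2.5 days, with a median log2 change of -0.12. Of all genes 10.2% were lower and 13.8% higher on that day. After 8.5 days 6 of the 39 were lower and 0 higher, with a median of -0.17, where 6.5% of all genes were lower and 7.63% higher. None of the 4 genes for complex II passed on either day. Of 6 genes for complex III, Uqcc1 and Ttc19 were lower after 2.5 days and 0 after 8.5 days. Of 23 genes for complex IV, Cox14, Coa7, Taco1 and Cox10 were lower on both days, and Cmc1 was higher after 2.5 days. Of 6 genes for complex V, Usmg5 and Atpaf1 were lower on both days. Usmg5 encodes a small accessory subunit of complex V itself, and it fell most, by 0.92 and 1.07. The difference between the subunit and the assembly lists was not tested.

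Examples show both directions. Usmg5 had 144.4 and 155.8 FPKM in Cre+ against 272.1 and 291.8 in Cre- EDL libraries after 2.5 days. Cox14, a translation and assembly factor of the first subunit of complex IV, had 79.08 and 79.83 against 126.3 and 143.2 FPKM and fell by 0.77 (adjusted p = 0.000772 in edgeR). Cmc1, which stabilises that subunit early in assembly, had 13.36 and 17.14 against 9.684 and 9.663 FPKM and rose by 0.65 (adjusted p = 0.00499).

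Some but not all of the other myofiber transcripts listed fell too, and in whole muscle fewer myofibers and less of these RNAs per myofiber cannot be told apart. The summed level of 5 skeletal muscle markers (Ckm, Acta1, Mb, Des and Ttn) was between 20060 and 23740 FPKM in Cre+ and between 42330 and 46700 in Cre- EDL libraries after 2.5 days, and between 20020 and 26340 against 39150 and 42440 after 8.5 days. Acta1 fell by 1.16 and 0.94 and Ckm by 1.02 and 0.81, Ttn fell after 2.5 days only, and Des rose by 0.94 after 8.5 days. Acta1 is also the gene whose promoter drives Cre. Of the 10 fast fibre genes 5 were lower after 2.5 days (Pvalb, Tnni2, Tnnt3, Tnnc2 and Myh1) and 2 after 8.5 days, and of the 8 slow fibre genes 1 (Myh7b) and 0. Among all genes 10.2% were lower after 2.5 days and 6.5% after 8.5 days.

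Some markers of other cells were lower as well, beside the 10.2% of all genes lower after 2.5 days and 6.5% after 8.5 days. Of 6 endothelial markers 4 were lower in EDL muscles after 2.5 days, when their sum was between 62.87 and 66.94 FPKM in Cre+ and between 86.08 and 102 in Cre- libraries, and 0 after 8.5 days. Of 5 smooth muscle markers, which include Cox4i2, Cnn1 and Tagln were lower after 2.5 days, with sums between 21.53 and 28.66 against 30.5 and 51.45 FPKM. Liver transcripts (3 of 5) were lower after 8.5 days, where the Cre- libraries summed to between 4.453 and 6.351 FPKM and the Cre+ libraries to between 0.5001 and 0.6516. Of the markers of macrophages (7), fibroblasts (5), satellite cells (4), erythroid cells (5), adipocytes (5 of 6 tested) and Schwann cells (5), 0 were called on either day in edgeR. The sums of the Schwann cell markers were between 137.5 and 176.5 FPKM in Cre+ and between 154 and 241.2 in Cre- libraries after 2.5 days, those of the macrophage markers between 12.23 and 14.76 against 12.7 and 14.33, and those of the satellite cell markers between 4.458 and 4.707 against 4.655 and 4.758. The part of these cells in the change of the respiratory genes was not tested.

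The size of the change was alike in both libraries after 2.5 days and unlike after 8.5 days. Against the Cre- mean of the day, the median log2 difference of the 47 genes was -0.75 and -0.74 in the Cre+ EDL libraries of 2.5 days, whose Pou5f1 levels of 15.3 and 58.46 FPKM were far apart. After 8.5 days it was -0.96 in replicate 1 and -0.58 in replicate 2, and the geometric mean of the genes was 171.9 and 214 FPKM against 323.1 and 295.8 FPKM in Cre-. Far fewer of the 47 genes were called without the Cre+ replicate 2 of 2.5 days on that day. The same held after 8.5 days without the Cre+ or the Cre- replicate 1 of that day. Each such fit leaves 1 library in a group, and calls over all genes were not set beside it.

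**Figure D3:**
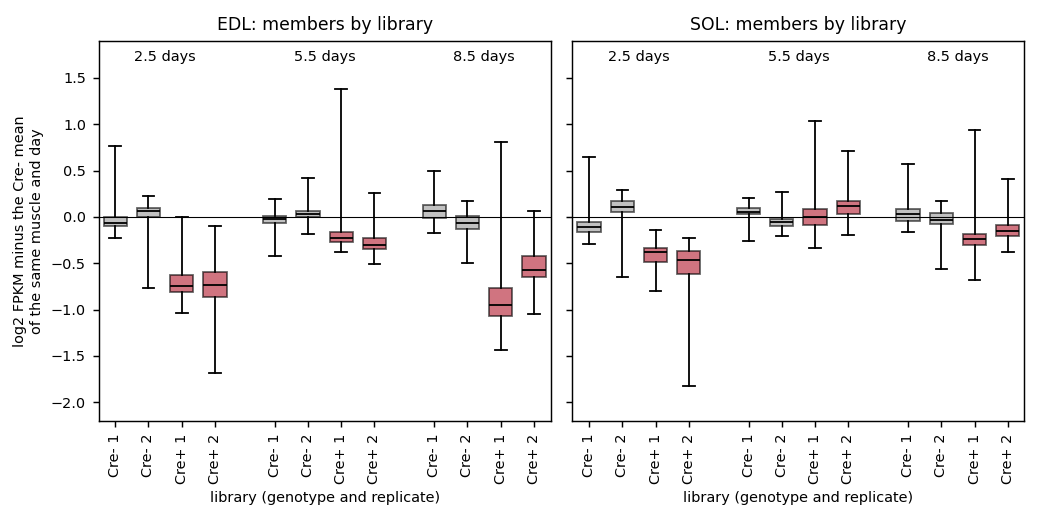
Log2 FPKM of the 47 genes in each library minus the mean of the log2 values of both Cre- libraries of the same muscle and day. Boxes span the quartiles with a line at the median, whiskers span all genes, and grey is Cre- and red Cre+. The Cre+ EDL boxes of 2.5 and 8.5 days lie well below 0, with medians between -0.58 and -0.96, and the Cre+ medians of the other boxes are -0.39 and -0.48 in SOL after 2.5 days, -0.22 and -0.30 in EDL after 5.5 days, -0.24 and -0.15 in SOL after 8.5 days and within 0.1 of 0 in SOL after 5.5 days.

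The scaling bears on how many genes pass. The TMM factors were between 1.075 and 1.206 in Cre+ and between 0.9212 and 0.98 in Cre- EDL libraries of 2.5 and 8.5 days, and the 10 highest genes of a library took between 13.5% and 18% of its counts in Cre+ and between 18.9% and 23% in Cre-. With library size alone the median of all genes was 0.28 after 2.5 days and 0.16 after 8.5 days, that of the 47 genes -0.41 and -0.56, and 14 and 24 genes were lower (3.97% and 3.53% of all genes) with 0 higher. Of the 47 genes 42 and 43 had a change below 0 under that scaling, and Sdhb, Cox4i2, Cox7a2l, Cox8a and Atp5d had a change above 0 after 2.5 days. With TMM scaling both Cre+ libraries lay below both Cre- libraries for 45 of the 47 genes after 2.5 days, as for 34.2% of all genes, and for 43 after 8.5 days, as for 28.7%.

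In EDL muscles after 5.5 days, where 1 of the Cre+ libraries had the low Pou5f1 level given above, 0 of the 47 genes were called in edgeR, where of all 15478 genes 0.0452% were lower and 0.258% higher. At an unadjusted p under 0.05, 11 genes were lower (3.93% of all genes) and 0 higher, and DESeq2 on the same libraries called 0 with 16 genes at an unadjusted p under 0.05. The median log2 change was -0.24 against -0.01 for all genes, with 46 of the 47 genes below 0 (51.3% of all genes). The Cre+ library with 29.35 FPKM of Pou5f1 had a median difference of -0.30 and that with 1.073 FPKM -0.22. For 38 of the genes both Cre+ libraries lay below both Cre- libraries, as for 21.1% of all genes. With library size alone this held for 24 genes (8% of all genes), the median was -0.10 against 0.13 for all genes, 39 genes had a change below 0 and 0 were called. With TMM scaling Atp5g1, with -0.44, Cox6a2, with -0.43, and Atp5l, with -0.39, had the most negative values.

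The next question was whether the slow muscle responded in the same way. The 4 OSKM genes summed to between 29.35 and 53.73 FPKM in Cre+ SOL libraries of 2.5 and 8.5 days. In Cre+ EDL libraries of those days the sum was between 64.98 and 221.6 FPKM. The paper reports similar Klf4 levels in Cre+ and Cre- SOL muscles. The kind of muscle and the level of OSKM thus cannot be told apart here. In SOL muscles after 2.5 days 0 of the 47 genes were called in edgeR, where 0.039% of all genes were lower and 0.345% higher, and all 47 had a change below 0, as did 47% of all genes. The median was -0.41 against 0.02 for all genes, 39 genes were lower at an unadjusted p under 0.05 (7.03% of all genes), and the smallest adjusted p was 0.105, that of Uqcrq, a small subunit of complex III. Both Cre+ libraries lay below both Cre- libraries for 46 of the genes, as for 24.4% of all genes. With library size alone the median was -0.26 against 0.18 for all genes, with all 47 below 0 and 0 called. DESeq2 on the same libraries called 8 genes lower (0.925% of all genes), DESeq2 on the 4 libraries of the comparison 11 (1.39%), and edgeR on all 24 libraries 3, Uqcrq, Uqcr10 and Atp5d (0.291%).

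The values of 3 of those genes were as follows. Uqcrq had 269 and 244.5 FPKM in Cre+ against 400.7 and 431.2 in Cre- SOL libraries after 2.5 days (log2 change -0.68, 95% interval -0.99 to -0.37). Cox6a2 had 1362 and 1170 against 2109 and 1938 FPKM (-0.66, adjusted p = 0.139 in edgeR and 0.00598 in DESeq2). Cox8b had 1040 and 687 against 1303 and 1603 FPKM (-0.74, adjusted p = 0.156 in edgeR and 0.0193 in DESeq2). In each case the groups did not overlap.

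After 5.5 days Pou5f1 had only 0.08123 and 0.4003 FPKM in the Cre+ SOL libraries. The 4 OSKM genes summed to between 8.718 and 15.97 FPKM there and between 17.14 and 17.21 in Cre-. These libraries therefore say little about a response to OSKM. On that day 0 genes were called in SOL muscles in edgeR or DESeq2, and 0 had an unadjusted p under 0.05 in either. By that limit 2.03% of all genes were lower and 1.83% higher in edgeR. The median was 0.04 against 0.01 for all genes, of which 0% were called. After 8.5 days 0 genes were called (0.299% of all genes were lower and 0.332% higher), 4 were lower at an unadjusted p under 0.05 in edgeR (2.75% of all genes) and 4 in DESeq2, which also called 0, and the median was -0.19 against -0.01. Both Cre+ libraries lay below both Cre- libraries for 34 genes, as for 19.8% of all genes. The Cre- SOL libraries of that day also held liver transcripts, at between 15.36 and 76.07 FPKM summed over 5 genes, against between 0.5772 and 0.8644 in Cre+.

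The change itself was then compared between the muscles, whose OSKM levels differed as given above. After 2.5 days the change in EDL minus that in SOL muscles had a median of -0.32 over the 47 genes (-0.07 over all genes) with 41 below 0 (54.7% of all genes). In edgeR 0 of the 47 were called, where 0.891% of all genes had the more negative change in EDL and 3.36% the more positive one. By an unadjusted p under 0.05, 2 were more negative in EDL, Atp5o and Atp5sl (8.58% of all genes), and DESeq2 on the same libraries called 0 with 5 at an unadjusted p under 0.05. After 8.5 days the median was -0.53 with 45 below 0 (51.7% of all genes). In edgeR 0 were called (0.0585% of all genes were more negative in EDL and 0.533% more positive), 27 were more negative in EDL at an unadjusted p under 0.05 (5.11% of all genes), and DESeq2 on the same libraries called 1, Atp5f1 (-0.65, adjusted p = 0.0447 in DESeq2 and 0.25 in edgeR, 0.593% of all genes called in DESeq2). A difference in response between the muscles was therefore not shown for a single gene in edgeR.

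**Figure D4:**
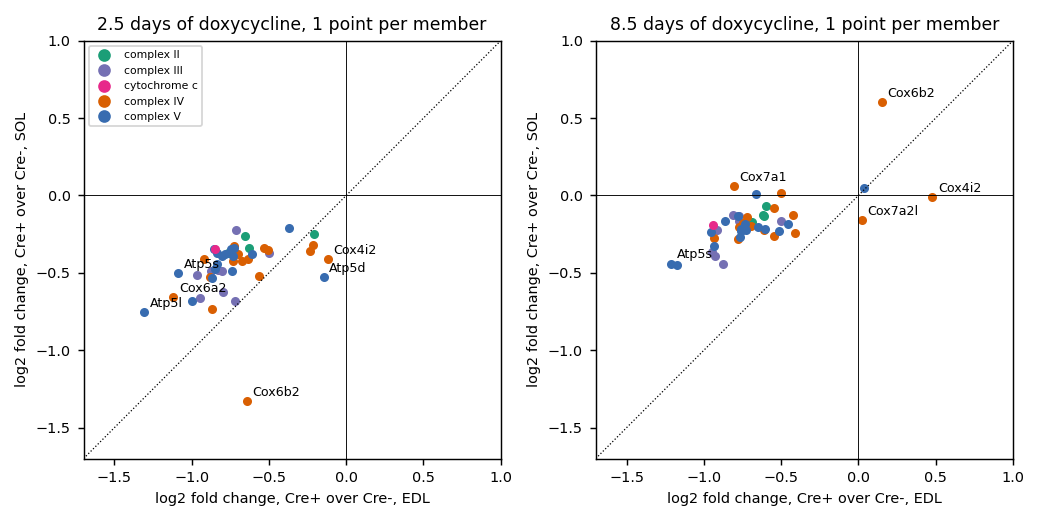
Log2 fold change of Cre+ over Cre- in EDL (x axis) and SOL muscles (y axis), 1 point for each of the 47 genes, coloured by complex, after 2.5 and 8.5 days. The dotted line marks equal change. After 2.5 days 41 genes and after 8.5 days 45 genes lie above the dotted line, with the more negative value in EDL.

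Cox7a1 had the most negative difference after 8.5 days. In EDL its log2 change was -0.80, and in SOL it was 0.06, where it had 666.3 and 737.5 FPKM in Cre+ and 677.3 and 674.8 in Cre- libraries, and the difference of -0.86 (standard error 0.31) had an adjusted p of 0.296 in edgeR. The muscle forms as a group had median differences of -0.46 after 2.5 days and -0.66 after 8.5 days, and the ubiquitous forms -0.20 and -0.30.

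The last comparison was that of the muscles themselves in Cre- mice. After 2.5 days 7 of the 47 genes were lower in EDL than in SOL muscles and 0 were higher, where of all genes 7.86% were lower and 8.14% higher in EDL. The 7 genes were Sdhc, Uqcrq, Cox5b, Cox8a, Atp5g3, Atp5h and Atp5j, with log2 differences between -0.51 and -0.79. After 5.5 days Sdhc, Cox6a2 and Cox8a were lower (3 genes, with 10.2% of all genes lower and 9.6% higher), and after 8.5 days Cox8a (1 gene, with 9.53% lower and 8.65% higher). The median difference of the 47 genes was -0.37, -0.18 and -0.06 on the 3 days.

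Cox8a was the gene called on all 3 days. It had 72.74 and 77.49 FPKM in EDL against 129.5 and 134.9 in SOL libraries after 2.5 days, 59.62 and 67.01 against 100.6 and 96.56 after 5.5 days, and 79.81 and 83.61 against 122.9 and 115.4 after 8.5 days. The log2 differences were -0.79, -0.64 and -0.53 (adjusted p = 0.000184, 0.000573 and 0.0031 in edgeR), and the muscles did not overlap on any day. Its muscle partner Cox8b was not called on any day.

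The ratios were also compared between the muscles in Cre- mice, over 6 pairs of libraries with the same day and replicate number, where the smallest exact p is 0.0312. Cox7a1 over Cox7a2 was 0.23 higher in EDL muscles (1.85 against 1.62, exact permutation p = 0.0312, adjusted 0.0938), and Cox8b over Cox8a was 0.31 higher (3.76 against 3.46, p = 0.0312, adjusted 0.0938 by the same exact permutation test). Both were higher in EDL in all 6 pairs, and neither passed after adjustment. Cox6a2 over Cox6a1 differed by -0.08 (exact permutation p = 0.469, adjusted 0.603).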

How the data were processed

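Whole-muscle RNA gave 24 libraries. Per the labels and the study's methods, the authors checked reads with FastQC 0.11.2, mapped them with STAR 2.5.3a (genome mm10) and used HOMER to count uniquely aligned reads over RefSeq exons. The deposited values are raw counts per gene, with exon lengths (other unit, bases) beside them. Whether counting used strand is not given in the sources used here.

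Counts were tested in R 4.3.3 with edgeR 4.0.16 (quasi-likelihood test, TMM, minimum count 10) in 1 fit of the 16 libraries of 2.5 and 8.5 days (15372 genes) and 1 fit of all 24 libraries for 5.5 days (15478 genes). Genes were called at a Benjamini-Hochberg adjusted p under 0.05 over all genes and an absolute log2 fold change over 0.5. Standard errors were derived as the absolute log2 change divided by the square root of the F statistic of that test. Intervals reach 1.96 standard errors to either side. The script was tested on simulated data. DESeq2 1.42.0, other scalings, filters, fits and leaving out each library were the alternatives.

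Isoform ratios used log2(FPKM + 0.1) and an exact permutation test. EDL and SOL libraries of the same number deviated together in all 6 groups (correlation 0.173 to 0.445), with the pairing taken from the data and not from the labels, and were paired for those ratios. Cre+ and Cre- libraries of the same number did not (-0.169 to 0.0578). The labels do not say that replicates are separate animals, so p-values measure the spread between these samples.

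The genes, lists of assembly factors, fibre genes and markers were chosen with earlier results of these data known. Every gene of the set may be named. Values in each EDL library of 2.5 and 8.5 days are given for the tested isoforms of complex IV, the 2 highest genes of each complex and the 3 largest falls after 2.5 days in EDL. Atp5g1, Atp5g2, Atp5g3, Sdhb, Uqcrq, Ckm and Acta1 were named for other comparisons. Intervals are 95%, and counts of 0 to 3 are at the floor, which covers counting error only.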

Additional observations from a re-analysis of the deposited data

Results flagged for a closer look

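Of 18 groups of isoform ratios examined for a sample far from the others, 1 was flagged, where chance flags about 1 in 20 groups. In Cre- EDL muscles, Cox7a1 over Cox7a2 was 1.57 on the log2 scale in replicate 2 of 8.5 days, and the 5 other Cre- EDL libraries lay between 1.83 and 1.97.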

How the results depend on the processing

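Scaled by library size only, without TMM, 14 of the 47 genes were lower in Cre+ EDL after 2.5 days and 24 after 8.5 days. Of all genes 3.97% and 3.53% were lower. In Cre- mice 16 of the 47 were lower in EDL than SOL after 2.5 days and 5 after 5.5 days. Among all genes, 1550 of 15372 and 1967 of 15478 were lower there. With a replicate block, whose numbers do not pair Cre+ with Cre- libraries, 37 and 22 genes were lower in EDL after 2.5 and 8.5 days. Of all 15372 genes 1235 and 632 were lower. With the replicate number as a block, where EDL and SOL libraries deviate together, 9, 3 and 2 were lower in EDL than SOL on the 3 days. Among all genes, 1395 of 15372, 1782 of 15478 and 1737 of 15372 were lower. In SOL after 2.5 days the fit of all 24 libraries called 3, DESeq2 called 8 with all 16 libraries and 11 with those 4 by themselves. Between muscles after 5.5 days the count was 5 with no limit on the fold change, where 1812 of all 15478 genes were lower. It was 1 each with no filter on low counts, with at least 10 counts in every library and in the fit of the 4 libraries. Of all genes 1446 of 20149, 1305 of 12979 and 1660 of 14246 were lower in that order. For the difference of the changes after 8.5 days DESeq2 called 1. Cox8b over Cox8a was -0.645 after 2.5 days and -0.090 after 8.5 days in EDL, and -0.394 and 0.258 in SOL. Without the pairing of muscles its EDL minus SOL difference of 0.306 had an exact permutation p of 0.21 in place of 0.0312. Leaving out 1 library gave 22 to 39 genes in EDL after 2.5 days and 7 to 38 after 8.5 days, with 21 without the Cre- replicate 1. It gave 0 for SOL on all 3 days, for EDL after 5.5 days and for the 3 tests of a difference in change. Between muscles the fewest were called after 2.5 days without the EDL replicate 1 or the SOL replicate 2. After 5.5 and 8.5 days this was so without replicate 1 of either muscle. Each such fit leaves 1 library in a group, and calls over all genes were not set beside it.

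Leaving out 1 library, the ratio differences ran from -0.645 to -0.507 (Cox6a2 over Cox6a1), -0.130 to 0.002 (Cox7a1 over Cox7a2) and -0.485 to -0.248 (Cox8b over Cox8a) in EDL, and from -0.305 to -0.192, 0.051 to 0.214 and -0.163 to 0.048 in SOL. Between the muscles they ran from -0.126 to -0.019, 0.192 to 0.253 and 0.220 to 0.354. Single genes turned direction under library size alone after 2.5 days: Cox8a (0.101), Cox4i2 (0.212), Cox7a2l (0.117), Atp5d (0.187) and Sdhb (0.127). With 1 library left out the values ran across 0 after 2.5 days for Cox6b2 (-1.211 to 0.314) and Cox4i2 (-0.325 to 0.122), and after 8.5 days for Cox6b2 (-0.273 to 0.728, with -0.014 without the Cre+ replicate 1), Cox7a2l (-0.100 to 0.162, with -0.004 without the Cre+ replicate 2) and Atp5g2 (-0.077 to 0.164, with -0.007 without the Cre+ replicate 2). Of the other gene values under the alternatives, 1045 kept direction and side of the threshold, 153 kept direction only and 11 passed newly. The cause of these changes was not tested, and a library left alone in its group is assumed to vary like the others.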
